A study of Mus musculus with 6 samples.

Results

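The opioid system of the mouse forebrain was followed through 7 genes, taken by name as the opioid receptors and 3 opioid peptide precursors. They are the opioid receptor genes Oprd1, Oprk1, Oprm1 and Oprl1 and the opioid peptide precursor genes Penk, Pdyn and Pnoc, which are 7 of the 23282 entries of the count tables. All 7 genes had reads, and 6 passed the filter on low counts, while Oprd1 did not and was taken from the same fit without a filter. The study fed C57BL/6J wild-type male mice, 8 to 10 weeks old, either a normal chow diet (NCD) or a high-fat diet (HFD, 60% of the energy from fat) for 10 days. RNA came from forebrain hemispheres without the olfactory bulbs and the cerebellum, in 3 NCD and 3 HFD libraries, with no other treatment or allele in either group. The sources used here do not say whether each library is 1 mouse. The p-values thus refer to the spread between these libraries, which edgeR estimates in part from all genes.

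Opioid peptides are cut from larger precursor proteins at pairs of basic residues and act on receptors that couple to inhibitory G proteins, which lower cAMP, open potassium channels and close calcium channels. Penk gives the enkephalins, which act mainly at the delta (Oprd1) and mu (Oprm1) receptors, Pdyn gives the dynorphins, which act mainly at the kappa receptor (Oprk1), and Pnoc gives nociceptin, the ligand of the related receptor Oprl1. In the forebrain, Penk and Pdyn are known as markers of the indirect and direct striatal projection neurons, and mu receptor signalling in the striatum is known for its part in the intake of palatable, fat-rich food.

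Peptide-coding stretches of the 3 precursors, shown here in part, show how the ligands are related. They were read from the GENCODE vM21 transcripts on GRCm38, which is the mm10 build of the count tables, and each lies on the minus strand inside a coding exon. Each line holds the codons of the peptide and the 2 codons on either side, or up to the last codon where the peptide ends the precursor. The capitals mark the first 4 codons of the peptide, the message motif that opens every classical opioid peptide and, with another first residue, nociceptin.
Penk, Met-enkephalin at codon 100, chr4:4134328-4134354: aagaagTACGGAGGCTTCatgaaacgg
Penk, extended Met-enkephalin at codon 187, chr4:4134058-4134093: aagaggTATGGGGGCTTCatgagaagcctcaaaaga
Penk, Leu-enkephalin at codon 231, chr4:4133935-4133961: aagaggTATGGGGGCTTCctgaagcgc
Penk, extended Met-enkephalin at codon 262, chr4:4133842-4133868: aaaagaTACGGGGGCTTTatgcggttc
Pdyn, dynorphin B, chr2:129688043-129688093: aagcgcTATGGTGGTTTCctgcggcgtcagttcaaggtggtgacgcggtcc
Pnoc, nociceptin at codon 141, chr14:65404836-65404898: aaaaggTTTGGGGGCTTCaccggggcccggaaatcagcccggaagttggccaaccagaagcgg

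The Penk coding sequence of 268 codons held 7 enkephalin copies, of which 6 were Met-enkephalin and 1 was Leu-enkephalin. The Pdyn coding sequence of 248 codons held 3 Leu-enkephalin cores, each opening a longer peptide, and the Pnoc coding sequence of 187 codons held 1 nociceptin. A pair of basic codons stood before all 7 copies in Penk, all 3 in Pdyn and the 1 in Pnoc. The 7 copies in Penk used 5 different codings of the core, so related peptides within 1 precursor are not repeats of 1 DNA word. Reverse transcription in QuantSeq begins with an oligo-dT primer at the poly(A) tail, which places the reads near the 3′ end of each transcript, and they do not report which peptide was cut from the precursor.

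In the first-numbered GENCODE transcript of each gene, the longest stretch shared by 2 receptor genes ran from 17 to 25 bases, that shared by 2 precursor genes from 11 to 15 bases, and that shared by a receptor and a precursor gene from 10 to 13 bases, against reads of 75 bases. In GENCODE vM21, Oprd1 spans chr4:132110726-132144486 on the minus strand with 1 transcript. RefSeq ends Oprd1 538 bases further downstream on the same build, and which end the counting used is not given in the sources used here. Oprk1 spans chr1:5588466-5606131 on the plus strand. Oprm1 spans chr10:6758506-7038198 on the plus strand, with 17 coding transcripts that end at 15 different positions, so 3′ counting may take in only some of its isoforms. Oprl1 spans chr2:181715016-181720985 on the plus strand. Penk spans chr4:4133531-4138819, Pdyn chr2:129686565-129699844 and Pnoc chr14:65400673-65425472, all on the minus strand. Against all other genes, Oprk1 shared stretches of 40 bases with 1645 genes, but 0% of the stretches in its coding transcripts were shared. Pnoc shared such stretches with 18 genes, and 0.6% of the last 500 in its coding transcripts were shared. That share was higher for Oprm1, 1.33%, with Ipcef1 as the 1 sharing gene, and 0% for Oprd1, Oprk1, Oprl1, Penk and Pdyn. The use of strand in the counting is not given in the sources used here. Exons of Oprm1 overlap those of Ipcef1 on the opposite strand over 96 bases, and exons of Penk overlap those of A830012C17Rik on the opposite strand over 157 bases near the 5′ end of Penk, so reads there could belong to either gene.

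The libraries held between 6842785 and 9689372 counts, and a floor of 3 counts corresponded to between 0.316 and 0.432 CPM, read counts scaled to libraries of equal size with TMM factors. Values per library are given in the order of replicates 1, 2 and 3 of each diet. Counting intervals and floors cover counting error only. The intervals of log2 fold changes and folds from the edgeR fit also cover a spread between libraries, estimated in part from all genes. In the fit without a filter, used for Oprd1, the spread of the single gene counted little. There the pituitary gene Prl, with 956 reads in HFD replicate 3 and 0 to 5 elsewhere, had an unadjusted p of 3.24e-30 in edgeR. HFD replicate 3 stood apart, with the summed level of 10 anterior pituitary genes at 1277 CPM against 4.75 to 13.6 CPM in the other 5 libraries. It also had the highest share of Rn45s counts, 8.75% against 5.55% to 7.35%. A chi-square per degree of freedom, which grows with the difference within a pair of libraries, was 14.1 to 18.1 for pairs with HFD replicate 3. Other pairs had 3.19 to 12.7, and those of them with NCD replicate 3 had 8.13 to 12.7. Eomes, a gene of the projection neurons of the olfactory bulb, had 136 reads in NCD replicate 2 and 37 in HFD replicate 2 against 0 to 18 in the other 4 libraries. Among the listed markers of neurons and of striatal projection neurons, none lacked reads in all libraries. Drd2, a defining gene of the indirect striatal neurons, had 1 read in the 6 libraries together while Adora2a, another gene of those neurons, had between 141 and 220, so a low count of a gene in these tables is not by itself a low level in the tissue.

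Penk was the most abundant of the 7 genes in all 6 libraries, as the plot of CPM by library shows. Oprd1 was the least abundant in the mean over both diets and in 4 of 6 libraries, but lay above Oprm1 in NCD replicates 1 and 2 and in the NCD mean, 1.46 against 1.38 CPM. The mean was 258.9 CPM for Penk and 35.5 CPM for Pdyn, 7.30 times apart. Oprl1, the nociceptin receptor, followed at 21.1 CPM and was the most abundant receptor, above Oprk1 with 9.46 CPM and Pnoc with 9.05 CPM. Oprm1 had 1.89 CPM and Oprd1 0.883 CPM. The ranges of neighbours in this order did not overlap over the 6 libraries, except at 2 steps. Oprk1 and Pnoc overlapped, with Oprk1 higher in 4 of 6 libraries, and so did Oprm1 and Oprd1. Reads of a 3′ library do not grow with transcript length, and CPM was also set per kilobase of the longest coding transcript to show how length moves the order. On that scale the levels were 178.7 CPM per kilobase for Penk, 14.9 for Pdyn, 7.03 for Oprl1, 4.20 for Pnoc, 2.02 for Oprk1, 0.780 for Oprm1 and 0.220 for Oprd1. Pnoc then came before Oprk1, and no other neighbours changed places.

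**Figure D1:**
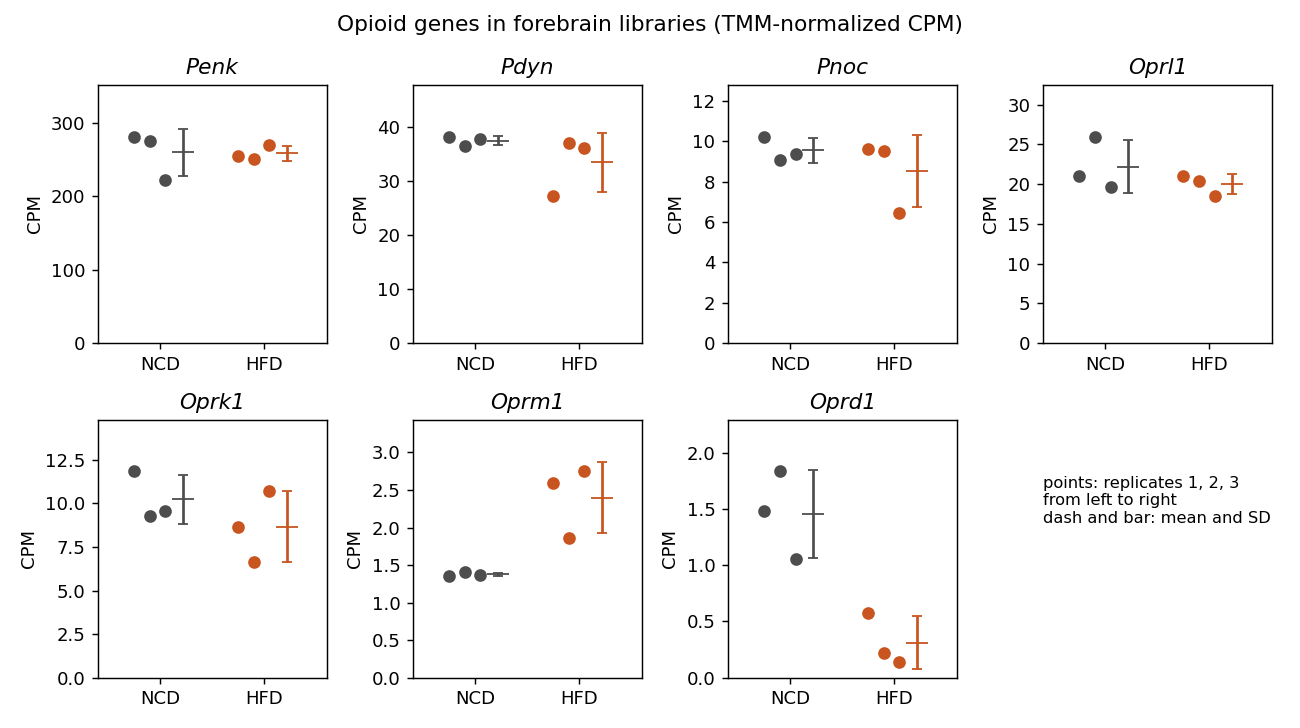
CPM after TMM scaling (y axis, from 0, a scale of its own in each panel) of the 7 opioid genes in the 3 NCD and 3 HFD libraries. Points are single libraries and the dash with a bar is the mean with its SD. Oprd1 lies lower in all HFD libraries, Oprm1 higher, and the groups of the other 5 genes overlap.

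Between the diets, none of the 7 opioid genes passed an adjusted p of 0.05 in the edgeR quasi-likelihood test (Benjamini-Hochberg). Over all genes, that threshold was passed by 0 of the 13771 genes above the filter (0%), and without a filter by 23 of 18936 genes (0.121%). The latter include the pituitary hormone genes Prl, Cga and Fshb, whose reads came almost all from HFD replicate 3, so they are not read as diet differences. DESeq2 called 2 genes of the 13771 and 0 opioid genes. At an unadjusted p under 0.05 the test called 507 genes above the filter (3.68%), 0 of the 6 opioid genes among them, and without a filter 902 genes (4.76%), with Oprd1 among them. The threshold of the study, a fold of 1.5 with an unadjusted p under 0.05, was passed by 1.28% of the genes above the filter and by 2.09% without a filter, and among the opioid genes by Oprd1. Libraries of the diets did not overlap for 2 of the 7 opioid genes. These were Oprm1, where the background was 8.81% of the genes above the filter, and Oprd1, where it was 8.14% of all genes with a count. The plot of log2 fold changes shows the 7 genes with their intervals.

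**Figure D2:**
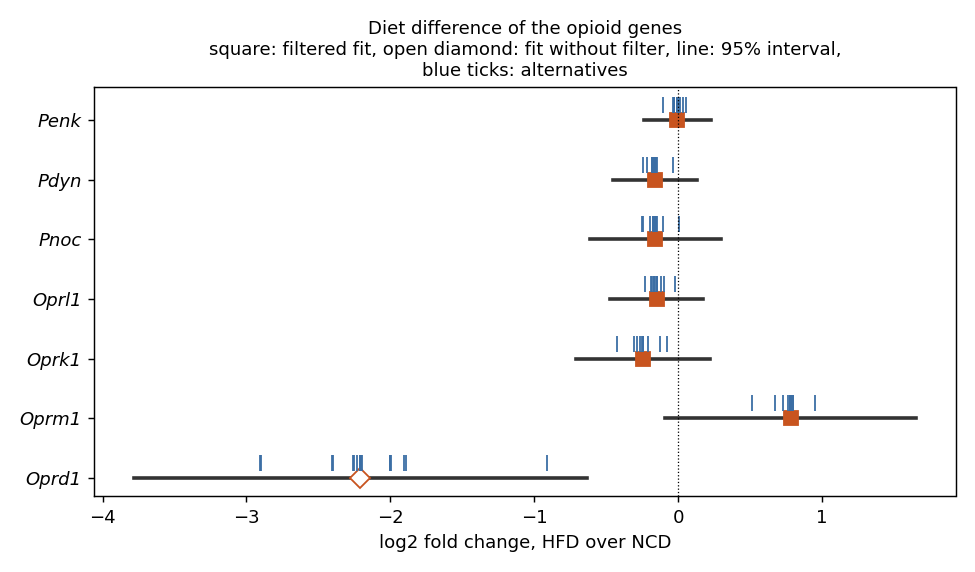
Log2 fold change of HFD over NCD (x axis) for the 7 opioid genes, with its 95% interval (line). Squares come from the fit with the count filter, the open diamond (Oprd1) from the fit without it, and blue ticks are the values under the alternative settings. The interval of Oprd1, from -3.78 to -0.63, is the one that lies apart from 0, and the other 6 cross it.

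Oprd1, the delta receptor, differed most between the diets on the log2 scale, at a very low level. It had 12, 17 and 10 reads in the 3 NCD libraries, against 4, 2 and 1 reads in the 3 HFD libraries. Every HFD library lay below every NCD library, and HFD replicates 2 and 3 lay under the floor of 3 counts. The level was 1.46 ± 0.391 CPM under the NCD against 0.311 ± 0.233 CPM under the HFD (mean ± SD, n = 3 each), or 39 reads against 7 in all. The ratio of the means was 0.213, with a 95% counting interval from 0.0779 to 0.467. The log2 fold change of HFD over NCD was -2.21 (SE 0.80, 95% interval -3.78 to -0.63), with an unadjusted p of 0.00623 and an adjusted p of 0.726 in the edgeR quasi-likelihood test (Benjamini-Hochberg). An exact permutation test, two-sided, gave a p of 0.1, which is the smallest that 3 libraries against 3 allow. Oprd1 ranked 159 by p among the 18936 genes of the fit without a filter, where the spread of the single gene counts little. In 13 other settings fitted without a filter, Oprd1 had log2 fold changes between -2.91 and -0.91, unadjusted p between 0.000912 and 0.043 and adjusted p between 0.384 and 0.9999. The study also has Oprd1 in a list that it chose on these same libraries, which is no independent evidence of the direction.

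Oprm1, the mu receptor and main target of morphine, had the opposite sign, also at a low level. It had 11, 13 and 13 reads in the 3 NCD libraries, against 18, 17 and 20 reads in the 3 HFD libraries. Every HFD library lay above every NCD library, and the NCD libraries were nearly equal in CPM. Oprm1 had 1.38 ± 0.0231 CPM under the NCD against 2.40 ± 0.476 CPM under the HFD (mean ± SD, n = 3 each), a ratio of means of 1.74 with a 95% counting interval from 1.11 to 2.67. Its log2 fold change was 0.78 (SE 0.41, 95% interval -0.09 to 1.66), with an unadjusted p of 0.075 and an adjusted p of 0.979 in the edgeR quasi-likelihood test (Benjamini-Hochberg). The exact permutation test, two-sided, again gave the smallest p it can, 0.1. Without HFD replicate 3 the log2 fold change of Oprm1 was 0.67, with an unadjusted p of 0.19 in edgeR. In these bulk libraries, fewer cells with a transcript and less RNA per cell cannot be told apart, which holds for every gene given here.

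The ratio of Oprm1 to Oprd1 reads sets both genes side by side within a library, where depth cancels out. It was 0.917, 0.765 and 1.3 in the 3 NCD libraries, against 4.5, 8.5 and 20 in the 3 HFD libraries. The ratio thus lay higher in all HFD libraries, as follows from the separate values of both genes, and in HFD replicate 3 it rests on 1 Oprd1 read. The plot of both read counts shows the same values beside the floor.

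**Figure D3:**
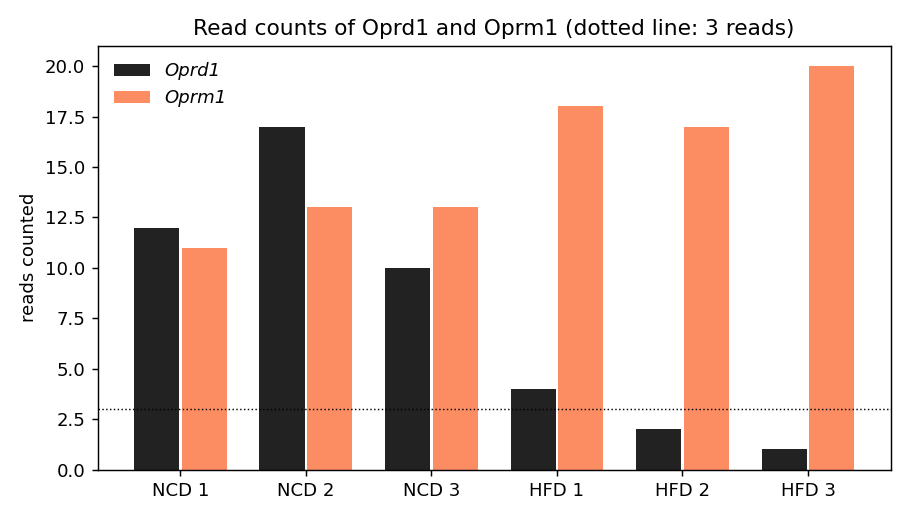
Reads counted (y axis, linear from 0) for Oprd1 (black) and Oprm1 (orange) in each of the 6 libraries, with no scaling for depth. The dotted line is the floor of 3 reads. Oprd1 has 10 to 17 reads in the NCD libraries and 1 to 4 in the HFD libraries, and Oprm1 has 11 to 13 and 17 to 20.

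Oprk1, the kappa receptor for dynorphins, was measured at a level where the libraries of both diets mixed. It had 11.8, 9.28 and 9.59 CPM in the 3 NCD libraries, against 8.64, 6.67 and 10.7 CPM in the 3 HFD libraries. HFD replicate 2 was the lowest and NCD replicate 1 the highest library, and HFD replicate 3 lay above 2 NCD libraries. Oprk1 had a log2 fold change of -0.24 (SE 0.22, 95% interval -0.71 to 0.22), with an adjusted p of 0.979 in the edgeR quasi-likelihood test (Benjamini-Hochberg). On the linear scale the interval ran from 0.611 to 1.17. Leaving out 1 library moved the log2 fold change from -0.43 (without HFD replicate 3) to -0.08 (without HFD replicate 2).

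Oprl1, the receptor of nociceptin, had the most reads of the receptors, between 135 and 241 in a library. Its levels were 21.0, 26.0 and 19.6 CPM in the 3 NCD libraries, against 21.0, 20.4 and 18.6 CPM in the 3 HFD libraries. NCD replicate 2 was the highest and HFD replicate 3 the lowest, and the other 4 libraries lay close together. For Oprl1 the log2 fold change was -0.15 (SE 0.15, 95% interval -0.47 to 0.17), with an adjusted p of 0.979 in the edgeR quasi-likelihood test (Benjamini-Hochberg). Without NCD replicate 2 it was -0.02.

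Summed over the 4 receptors, the level was 35.3 ± 3.47 CPM under the NCD against 31.4 ± 1.94 CPM under the HFD (mean ± SD, n = 3 each). Oprl1 made up between 57.7% and 70.0% of the receptor reads and Oprk1 between 22.8% and 33.3%, with both diets across those ranges. Oprd1 made up 4.15%, 4.76% and 3.33% of receptor reads in the 3 NCD libraries, against 1.75%, 0.749% and 0.427% in the 3 HFD libraries. The share of Oprm1 was 3.81%, 3.64% and 4.33% under the NCD, against 7.89%, 6.37% and 8.55% under the HFD. The shares of the 2 low receptors thus differed in opposite directions, as follows from their separate reads given above. Those of the 2 abundant receptors overlapped, as the plot of receptor shares shows.

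**Figure D4:**
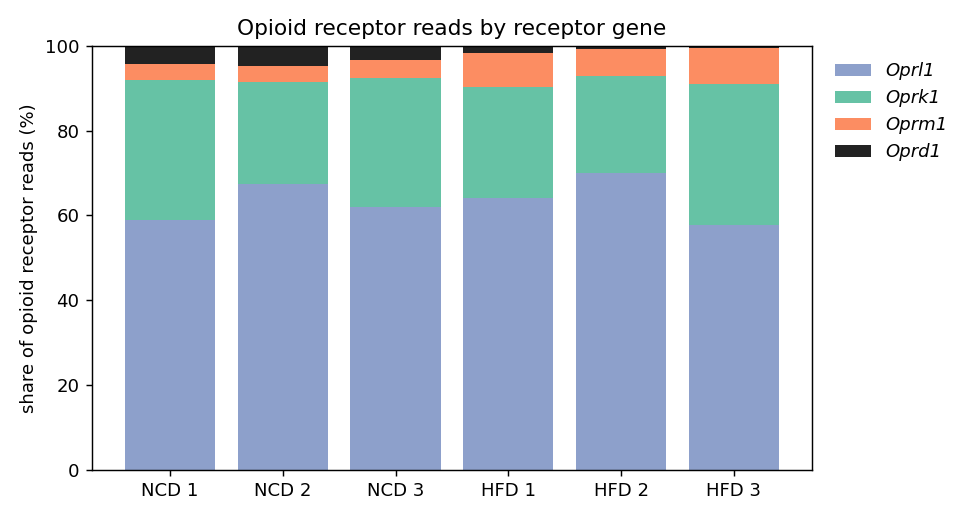
Share of opioid receptor reads (y axis, percent, summing to 100) that belong to Oprl1, Oprk1, Oprm1 and Oprd1 in each library, from 228 to 357 receptor reads. Oprl1 takes the largest share in all 6 libraries, and the black share of Oprd1 is 3.33% to 4.76% in the NCD and 0.427% to 1.75% in the HFD libraries.

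Among the precursors, Penk was almost level between the diets. It had 281.2, 275.1 and 222.6 CPM in the 3 NCD libraries, against 254.2, 251.0 and 269.5 CPM in the 3 HFD libraries. All HFD libraries lay inside the NCD range, whose lowest value was NCD replicate 3. Penk averaged 259.6 ± 32.2 CPM under the NCD against 258.2 ± 9.87 CPM under the HFD (mean ± SD, n = 3 each). The log2 fold change of Penk was -0.01 (SE 0.11, 95% interval -0.24 to 0.22), with an adjusted p of 0.997 in the edgeR quasi-likelihood test (Benjamini-Hochberg). With 1766 to 2550 reads in a library, the interval of the fold ran from 0.847 to 1.17, so a change of 1.5-fold or more in either direction lay outside it.

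Pdyn, the precursor of the dynorphins, had 38.3, 36.6 and 37.7 CPM in the 3 NCD libraries, against 27.2, 37.0 and 36.2 CPM in the 3 HFD libraries. HFD replicate 1 was low and the other 5 libraries lay close together. Pdyn had a log2 fold change of -0.16 (SE 0.14, 95% interval -0.45 to 0.13), with an adjusted p of 0.979 in the edgeR quasi-likelihood test (Benjamini-Hochberg), and it was -0.03 without HFD replicate 1. The interval of the fold ran from 0.731 to 1.09.

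Pnoc, the nociceptin precursor, had 10.2, 9.06 and 9.38 CPM in the 3 NCD libraries, against 9.64, 9.51 and 6.46 CPM in the 3 HFD libraries. HFD replicate 3 was low and the other 5 libraries lay between 9.06 and 10.2 CPM. For Pnoc the log2 fold change was -0.16 (SE 0.21, 95% interval -0.61 to 0.29), with an adjusted p of 0.979 in the edgeR quasi-likelihood test (Benjamini-Hochberg), and without HFD replicate 3 it was 0.00358. Of the precursor reads, Penk took between 82.5% and 87.3%, Pdyn between 9.35% and 14.0% and Pnoc between 2.07% and 3.48%. The 3 precursors summed to 306.7 ± 32.4 CPM under the NCD against 300.2 ± 10.8 CPM under the HFD (mean ± SD, n = 3 each).

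The spread over the 6 libraries was smallest for Penk, the most abundant gene. The highest library over the lowest was 1.26 for Penk, 1.40 for Oprl1, 1.41 for Pdyn, 1.59 for Pnoc and 1.78 for Oprk1. It was 2.03 for Oprm1 and 13.3 for Oprd1, the genes with the fewest reads. The lowest library was HFD replicate 3 for Oprd1, Oprl1 and Pnoc, HFD replicate 2 for Oprk1, HFD replicate 1 for Pdyn, NCD replicate 3 for Penk and NCD replicate 1 for Oprm1.

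The 75 genes of the opioid pathway, in 7 lists, gave 0 genes with an adjusted p under 0.05 and 0 with an unadjusted p under 0.05 among the 74 tested, in the edgeR quasi-likelihood test (Benjamini-Hochberg), against 3.68% of all genes at the unadjusted threshold. Kcnj5, a subunit of a G protein-gated potassium channel, did not pass the filter. Of the 74, 24 had a positive and 50 a negative log2 fold change, with a median of -0.04 against -0.00245 over all genes. Libraries of the diets did not overlap for 2 genes (2.70%), against 8.81% of all genes. These were chosen after their values were seen and are Cpd, a carboxypeptidase of peptide processing, and Arrb2, an arrestin that binds activated receptors, both lower on the HFD with unadjusted p of 0.126 and 0.162 in the edgeR fit.

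Upstream of the ligands, the 11 genes of prohormone processing had a median log2 fold change of -0.01, 5 positive and 6 negative. Their most abundant member Cpe, which trims basic residues from peptides after the first cut, had between 1794 and 1949 CPM and a log2 fold change of -0.04 (SE 0.08). The 10 peptidases that can break down opioid peptides had a median of -0.09, 2 positive and 8 negative, and the most abundant, Npepps, a puromycin-sensitive aminopeptidase, had a log2 fold change of -0.02 (SE 0.11).

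Downstream of the receptors, the 13 inhibitory G protein subunits had a median log2 fold change of -0.04, 5 positive and 8 negative. Gnao1, the most abundant alpha subunit of the inhibitory class in these libraries, had a log2 fold change of -0.12 (SE 0.11). The 3 tested G protein-gated potassium channel genes had a median of 0.11, and Kcnj3, which encodes a channel subunit opened by beta-gamma subunits, had 0.14 (SE 0.11). The 17 genes of receptor desensitisation and RGS proteins had a median of -0.05, 4 positive and 13 negative, with Rgs7bp, a membrane anchor of RGS proteins, at 0.05 (SE 0.09). The 15 genes of adenylyl cyclase and the cAMP response had a median of -0.05, 4 positive and 11 negative, with Prkar1a, a regulatory subunit of protein kinase A, at -0.05 (SE 0.09). The plot of the pathway shows that 1 gene, Pomc, lay far from the rest.

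**Figure D5:**
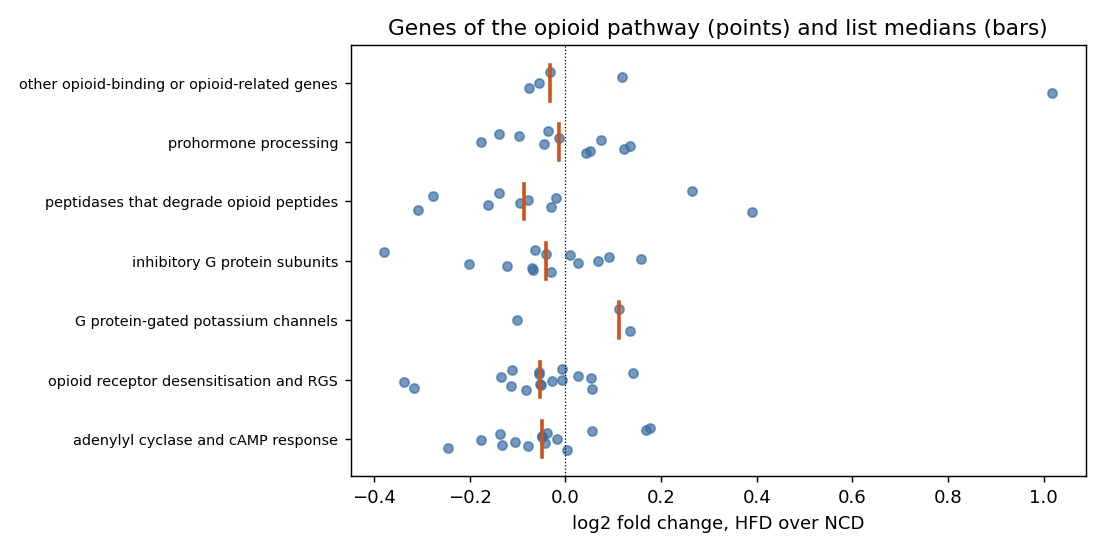
Log2 fold change of HFD over NCD (x axis) of the 74 tested genes of 7 opioid pathway lists, with a point for each gene and an orange bar for the median of each list. List medians lie between -0.09 and 0.11, and the point farthest to the right, at 1.02, is Pomc.

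The 5 other opioid-binding or opioid-related genes had a median of -0.03, 2 positive and 3 negative, and their most abundant member Ogfrl1, named for its likeness to the opioid growth factor receptor, had a log2 fold change of 0.12 (SE 0.11). Pomc, the precursor of beta-endorphin, had 25, 43 and 11 reads in the 3 NCD libraries, against 14, 35 and 89 reads in the 3 HFD libraries. HFD replicate 3 alone was high. The log2 fold change of Pomc was 1.02 (SE 0.54), with an unadjusted p of 0.0758 and an adjusted p of 0.979 in the edgeR quasi-likelihood test (Benjamini-Hochberg). Pomc is also a pituitary gene, and in HFD replicate 3 the pituitary hormone gene Gh had 7943 reads against 12 to 71 in the other libraries, Prl had 956 against 0 to 5 and Cga had 198 against 0 to 3. Their part in the Pomc value was not tested.

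Markers of brain regions and other cells were set beside the low receptors as whole lists. The 13 tested genes of striatal projection neurons, which are among the cells that make Penk and Pdyn, had 0 genes with an unadjusted p under 0.05 in the edgeR fit. Their median log2 fold change was -0.05, and the list summed to between 1361 and 1475 CPM on the NCD and 1379 and 1480 CPM on the HFD. The 11 GABA interneuron genes also had 0 and a median of -0.02. The olfactory bulb list of 6 genes summed to 71.0, 163.6 and 104.2 CPM in the 3 NCD libraries, against 72.3, 112.9 and 46.5 CPM in the 3 HFD libraries. Of its 5 tested genes, 5 were negative and 2 had an unadjusted p under 0.05 in the edgeR fit, against 3.68% of all genes. Its most abundant genes, Calb2 and Th, are also on the thalamus and habenula list and the midbrain list, respectively. Calb2 alone had 80.4 CPM in NCD replicate 3, and Th was among the lower genes of both of its lists. NCD replicate 2, the highest on this list, also had the most Oprd1 reads, 17, while HFD replicate 2, the second highest, had 2. Without NCD replicate 2 the log2 fold change of Oprd1 was -2.00, with an unadjusted p of 0.043 in the edgeR fit without a filter.

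The midbrain list, with 10 genes tested, had 9 negative values and 4 genes lower at an unadjusted p under 0.05 in the edgeR fit. Of all genes above the filter, 3.68% had an unadjusted p under 0.05 in either direction, which is the background for each list here. The hypothalamus list, with 9 tested, had 8 negative and 1 lower gene, for which every HFD library lay below every NCD library. The sums of both lists were lowest in HFD replicate 3. They were 135.8 CPM for midbrain against 166.6 to 199.3 CPM elsewhere, and 64.1 CPM for hypothalamus against 119.0 to 177.6 CPM elsewhere. Without that library the log2 fold change of Oprd1 was -1.89, with an unadjusted p of 0.0292 in the edgeR fit without a filter. The red blood cell list had 4 of 5 tested genes higher on the HFD at an unadjusted p under 0.05, with sums of 421.4 to 519.2 CPM on the NCD and 543.8 to 824.5 CPM on the HFD, and Slc4a1 at 0. The liver list had 5 of 7 tested genes lower at that threshold. Some of the lower genes passed the filter through their NCD reads. Examples are Foxa2 of the midbrain list, with 12, 14 and 17 reads on the NCD against 4, 10 and 0 on the HFD, and Fgb of the liver list, with 29, 35 and 14 against 2, 11 and 3. The lists of neurons, astrocytes, oligodendrocytes, microglia, dentate granule cells, choroid plexus and cerebellum had 0 genes at that threshold, and the list of thalamus and habenula had 1, which was higher. The part of these lists in the values of Oprd1 and Oprm1 was not tested.

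For each of the 6 genes above the filter, the 2 genes with the most similar pattern over the 6 libraries were taken from 9369 genes with a mean of at least 10 CPM, by the root-mean-square difference of log2 CPM after each gene was centred on its mean. With 6 points and so many candidates, close matches arise readily, and these are descriptions. Penk was nearest to Decr2 (0.0146) and Arhgap12 (0.0238). Pnoc was nearest to Mtus1 (0.0211) and Grin3a (0.0224), and Pdyn to Ddx28 (0.0391) and Prmt6 (0.0428). Among the receptors, Oprl1 was nearest to Kcnab3 (0.0348) and Gins2 (0.0392), and Oprk1 to Ddx26b (0.0612) and 4833422C13Rik (0.0775).

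Oprm1 was nearest to the haemoglobin genes Hbb-b2 (0.0739) and Hbb-bt (0.0849), members of a gene family whose reads may be split between near-identical copies. Hbb-bt had 253, 354 and 312 reads in the 3 NCD libraries, against 390, 398 and 474 reads in the 3 HFD libraries, so that both genes were higher in all HFD libraries. The pattern of Oprm1 rests on 11 to 20 reads in a library, and the relation was not tested.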

How the data were processed

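RNA-Seq was performed on 6 forebrain libraries of 1 tissue and 2 diets, 3 per diet, grouped by the treatment label. The authors prepared QuantSeq 3′ libraries, trimmed the reads, aligned them to mm10 with Bowtie2 and deposited raw read counts per gene, taken with bedtools from unique and multiple alignments. The versions, the gene annotation and the use of strand are not given in the sources used here. Multiple alignments can add reads to genes with near-identical copies.

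The deposited counts were analysed with edgeR 4.0.16 in R 4.3.3. filterByExpr (minimum count 10, minimum total count 15) kept 13771 of 23282 entries, which were scaled with TMM and tested with glmQLFit and glmQLFTest over all 6 libraries without covariates, with Benjamini-Hochberg adjustment. SE was computed by dividing the log2 fold change by the root of the F statistic. Oprd1 was under the filter and came from the same fit on the 18936 entries with a count. Entries with a repeated symbol (44) were kept apart. Exact permutation tests were two-sided. Counting intervals of ratios were exact binomial intervals at 95%. The fits were tested on simulated data. The alternatives used DESeq2 1.42.0, limma 3.58.1 with quantile normalization of log2(CPM + 1), other scalings and filters, a replicate block, robust estimation, and fits without each of the libraries. Positions and coding sequences came from GENCODE vM21 transcripts, and promoters were not used.

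Named are the 7 genes, Pomc, pathway genes with an unadjusted p under 0.05, the most abundant gene of each pathway list, and the 2 genes nearest in pattern to each of the 6 opioid genes above the filter. Other names were chosen after their values were seen. The 7 genes and all lists were chosen with earlier results of these data known. The study's own columns of comparisons and its metabolite data were not used. Some coding sequences and 1 listed marker gene are not reported here.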

Additional observations from a re-analysis of the deposited data

How the results depend on the processing

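The 7 opioid genes were refitted under 15 alternative settings, and 98 of 103 log2 fold changes kept their sign and an adjusted p above 0.05, while 5, all near 0, changed sign. These 5 came from leaving out 1 library. Penk moved to 0.0536 without NCD replicate 1, 0.04 without NCD replicate 2, 0.00407 without HFD replicate 1 and 0.01 without HFD replicate 2, within a range from -0.11 to 0.0536, and Pnoc to 0.00358 without HFD replicate 3, within a range from -0.25 to 0.00358. When 1 library was left out, Oprd1 ranged from -2.91 to -1.89 in fits without a filter, which for 4 of the libraries were added after the data were seen. With the filter it was tested in those 4 fits alone, where it passed through its NCD reads, and ranged from -2.90 to -1.90. It had the least negative value, -0.91, under quantile normalization with limma. There 1 was added to each CPM before the log2, more than the Oprd1 mean of 0.883 CPM. Oprd1 could not be fitted where 10 counts were required in every library. In that setting Oprm1 had an unadjusted p of 0.0356 with edgeR, so the 1 opioid gene under 0.05 was Oprm1 and not Oprd1. Oprm1 ranged from 0.51, under the same limma setting with 1 added, to 0.95.

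The number of pathway genes with an unadjusted p under 0.05 was 0 in the reported fit, 2 without a filter (Pomc and Gng4) and 0 to 2 when 1 library was left out, where the genes were Gng4, Mme, Gnaz, Pomc and Creb1, named after their values were seen. Libraries of the same number deviated with correlations of -0.03, 0.05 and -0.06, against -0.0631 to 0.0789 for libraries of different numbers. Such values over all genes cannot exclude that the numbers pair libraries. Eomes, for instance, was highest in replicate 2 of both diets, with 136 and 37 reads. With the replicate block, the log2 fold change was -2.26 for Oprd1 and 0.78 for Oprm1, and unadjusted calls over all genes numbered 371 against 507. Under DESeq2 they numbered 375, and without a filter 902. Depth limits Oprd1 and Oprm1, each with at most 20 reads in a library.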
